A study of Mus musculus with 10 samples.

Results

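Gene expression was compared between the ends of a series of sorted mouse bone marrow progenitors: Ly6D+ common lymphoid progenitors (CLPs, n = 2 arrays) against CD127- lymphoid-primed multipotent progenitors (LMPPs, n = 3 arrays). The arrays were chosen by their titles and make up 5 of the 10 arrays of the series. All came from adult C57BL/6 mice, and each array was hybridised with biotin-labelled total RNA. Both groups were sorted without lineage markers and with high Flt3. The CD127- LMPPs were high in cKit and in Sca-1 and lacked CD127, and the Ly6D+ CLPs were low in cKit and in Sca-1 and carried CD127 and Ly6D. The other arrays held CD127+ LMPPs (n = 3), which share the high cKit, Sca-1 and Flt3 of the first group, and Ly6D- CLPs (n = 2), which share the low cKit and Sca-1 of the second. The study divided LMPPs by CD127 and set both divisions beside CLPs. Whether the arrays of a group came from separate animals, pools or sorts is not stated in the labels, and a p-value therefore reflects only how far these samples spread, which may be technical.

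LMPPs are marrow progenitors that retain lymphoid and myeloid potential but have largely lost the capacity to make platelets and red cells. CLPs lie downstream and give rise to B cells, T cells, innate lymphoid cells and some dendritic cells. CD127, encoded by Il7r, is the α chain of the receptor for interleukin 7, the cytokine on which mouse B lymphopoiesis depends. Within CLPs, surface Ly6D marks cells that lean to the B lineage. B lineage specification starts with the transcription factors E2A, Ebf1 and Foxo1, which act on the recombinase genes, on the components of the pre-B cell receptor and on Pax5, the commitment factor.

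A gene value is the mean of the deposited probe set values of that gene, on a scale read as log2, and a difference is the Ly6D+ CLP mean minus the CD127- LMPP mean. A low-signal limit of 4.43 was set from sensory receptor genes, 95% of which lay below it. The median of all genes was 4.56. A group mean below the limit was raised to it before a fold was formed, and such a fold is written "at least". Across genes, arrays correlated at Pearson r of 0.978 to 0.986 within the CD127- LMPPs, 0.981 between the Ly6D+ CLP arrays, and 0.955 to 0.964 between the groups. The CLP and the LMPP arrays stand as separate runs in the deposit, so anything that differed between these runs cannot be told apart from the difference between CLPs and LMPPs. In these bulk samples, fewer cells of a type and less RNA per cell cannot be told apart.

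By limma with Benjamini-Hochberg adjustment at 0.05, 910 genes were higher and 1607 lower in Ly6D+ CLPs, which is 10.9% of the 23152 genes tested (3.93% higher and 6.94% lower). Of these, 319 were higher and 490 lower by 2-fold or more. On all 2517 called genes the arrays of the groups did not overlap, which was also so for 42.5% of all genes. The median difference of all genes was 0.022. The split of the calls depended on the scaling: 36.2% were higher as deposited, 47.4% after quantile normalization (1079 higher and 1197 lower) and 29.6% after median centring (747 and 1778). When each gene was read from its brightest probe set the share was 49.1% (835 and 867). The count fell to 1512 without CD127- LMPP array 1, 1015 without Ly6D+ CLP array 1 and 1001 without Ly6D+ CLP array 2.

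The genes by which the cells were sorted mostly followed the sort. Ly6d stood at 4.77, 4.91 and 4.61 on the CD127- LMPP arrays and at 11.31 and 11.35 on the Ly6D+ CLP arrays, a 94.8-fold difference (log2 difference 6.57, SE 0.19, limma adjusted p = 2.68e-08). Il7r stood at 3.84, 4.70 and 4.43 against 9.66 and 9.62, at least 36.9-fold (5.31, SE 0.21, adjusted p = 2.19e-07). Kit, which encodes the stem cell factor receptor cKit, stood at 8.67, 8.74 and 8.67 against 7.10 and 6.99, 3.14-fold lower in Ly6D+ CLPs (−1.65, SE 0.14, adjusted p = 6.06e-05). In all 3 genes the groups lay far apart, and the difference restates the sort. Flt3, high by the sort in both groups, differed by 0.25 and did not pass (adjusted p = 0.278). Ly6a, which encodes Sca-1, stood at 5.63, 5.99 and 5.82 against 5.83 and 6.77 and did not pass either (0.48, adjusted p = 0.479), although the sort took Sca-1 as high in LMPPs and low in CLPs. Only 2 probe sets carry Ly6a. Markers of LMPPs and CLPs beyond the sort were in place: Cd34 was 2.34-fold higher in CD127- LMPPs, and Rag1 and Dntt were higher in Ly6D+ CLPs, as given with their lists.

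**Figure D1:**
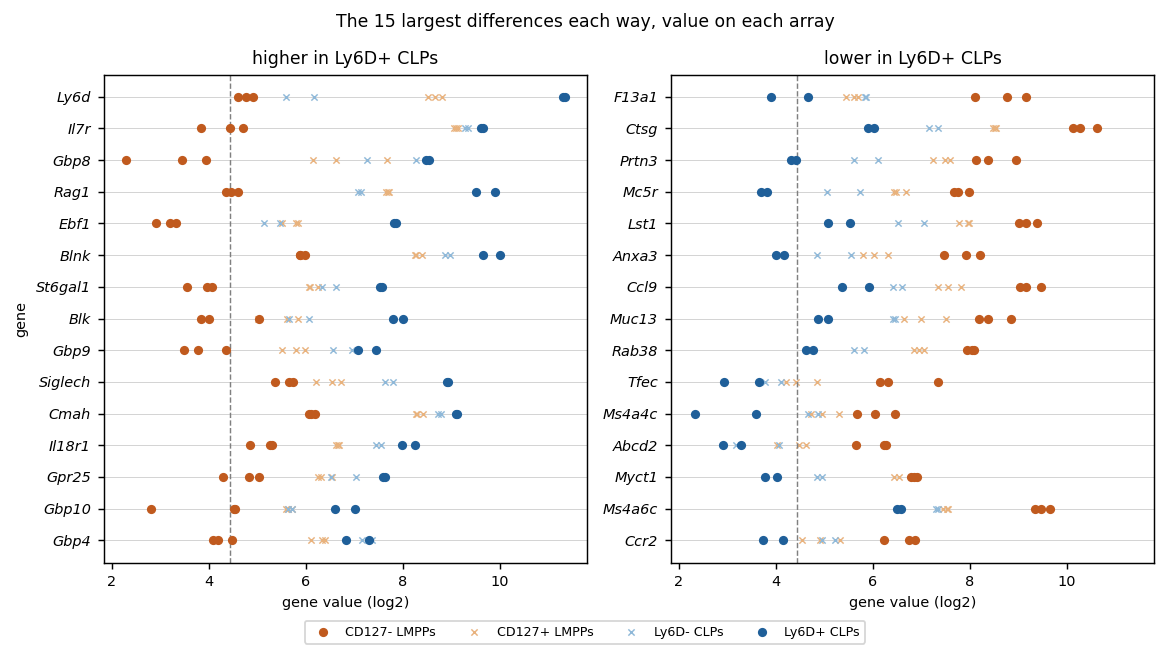
Gene values (log2) on each array for the 15 largest called increases (left) and decreases (right) that the naming rule admits. Filled circles are the compared CD127- LMPP and Ly6D+ CLP arrays, crosses are the other 2 groups, and the dashed line is the low-signal limit of 4.43. The filled circles of the 2 groups are apart in every gene, and most crosses lie between them.

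B lineage transcription factor genes were higher in Ly6D+ CLPs. Of 17 measured, 10 rose, 1 fell and 6 did not pass (64.7% called, against 10.9% of all genes), with a median difference of 0.59. Ebf1, which specifies the B lineage, stood at 2.90, 3.33 and 3.20 on the CD127- LMPP arrays and at 7.83 and 7.86 on the Ly6D+ CLP arrays, at least 10.6-fold higher (log2 difference 4.70, SE 0.18, limma adjusted p = 1.67e-07). All 21 Ebf1 probe sets were higher. Pou2af1, the B cell coactivator OCA-B, stood at 3.65, 3.89 and 4.25 against 5.76 and 6.12 (2.01, adjusted p = 0.00221). Spib, an Ets factor of B and plasmacytoid dendritic cells, stood at 3.55, 3.54 and 3.68 against 5.29 and 5.41 (1.76, adjusted p = 8.07e-05), and Irf4 at 4.32, 4.39 and 4.56 against 6.4 and 5.83 (1.69, adjusted p = 0.000429). The CD127- LMPP values of Ebf1, Spib and Pou2af1 lay at or under the low-signal limit on every array.

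Other members of the list were picked after their values were seen. Pax5 stood at 4.61, 4.68 and 4.99 against 5.66 and 5.54, a difference of 0.84 (adjusted p = 0.00947). Foxo1, a factor upstream of Il7r and the recombinase genes, differed by 0.82 (adjusted p = 0.00895), Bach2, a repressor active in B cells, by 0.92 (adjusted p = 0.00961) and Ikzf1, which encodes Ikaros, by 0.59 (adjusted p = 0.0155). The single member that fell was Pou2f2, which encodes Oct-2 (−0.71, adjusted p = 0.0154). Tcf3, which encodes E2A, did not pass (−0.31, adjusted p = 0.28), nor did Irf8 (−0.37, adjusted p = 0.335) or Bcl11a (−0.002, adjusted p = 0.996). The number of the 17 genes called higher was 5 with the median and 5 with the brightest probe set, 4 without Ly6D+ CLP array 1, 6 without array 2 and 7 without CD127- LMPP array 1. Pax5, Bach2 and Ikzf1 missed the threshold without either Ly6D+ CLP array (adjusted p from 0.0517 to 0.107), Foxo1 without array 1 (0.109), and with the brightest probe set Pax5 (0.09, adjusted p = 0.895), Spib (0.0918) and Pou2af1 (0.0895) lost their call.

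Components of the pre-B cell receptor and of B cell signalling rose as well. Of 15 measured, 9 rose, 0 fell and 6 did not pass (60.0% called, against 10.9% of all genes). The median difference was 1.24, with 2 members below 0. The pre-B cell receptor pairs the immunoglobulin heavy chain with a surrogate light chain made from the Vpreb1 or Vpreb2 and the Igll1 products, and signals through Cd79a, Cd79b and kinases. Blnk, the adaptor that links the receptor to downstream enzymes, stood at 5.88, 5.88 and 5.98 on the CD127- LMPP arrays and at 10.02 and 9.66 on the Ly6D+ CLP arrays, 15.2-fold higher (log2 difference 3.92, SE 0.15, limma adjusted p = 1.67e-07). Blk, a Src family kinase, stood at 4.0, 3.84 and 5.03 against 8.0 and 7.80, at least 11.1-fold (3.61, SE 0.34, adjusted p = 0.000129). Vpreb2 stood at 4.59, 4.48 and 4.74 against 7.08 and 7.43, 6.27-fold (2.65, SE 0.16, adjusted p = 6.73e-06). Cd79a stood at 3.91, 3.22 and 3.74 against 6.00 and 5.56, at least 2.55-fold (2.16, SE 0.30, adjusted p = 0.0013). In these 4 genes the Ly6D+ CLP arrays were high and the CD127- LMPP arrays lay near or below the low-signal limit, except for Blnk.

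Further members, picked after their values were seen, were the surrogate light chain genes Igll1 (1.49, adjusted p = 0.000845) and Vpreb1 (1.24, adjusted p = 0.0102), and Vpreb3 (1.52, adjusted p = 0.00347). The receptor gene Cd72 (1.38, adjusted p = 0.000516) and the heavy chain constant gene Ighm (0.66, adjusted p = 0.0175) were picked in the same way. Cd79b did not pass (−0.22, adjusted p = 0.482), nor did the kinase genes Syk (0.19, adjusted p = 0.477) and Btk (−0.10, adjusted p = 0.726). Vpreb1 and Vpreb2 are near-identical copies whose probes can bind either transcript, so the value of each is uncertain. With the brightest probe set Vpreb2 lost its call (0.50, adjusted p = 0.162) and Cd79b was called lower (−1.24, adjusted p = 0.0319), and the median probe set of Vpreb1 lay at −0.41 (adjusted p = 0.641). Without Ly6D+ CLP array 2 Vpreb1 missed the threshold (adjusted p = 0.101), and Ighm did without Ly6D+ CLP array 1 (0.169) and CD127- LMPP array 1 (0.0595).

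The windows of 250 bases before the RefSeq start (GRCm38.p6) of 2 genes that rose, Cd79a and Igll1, and of 2 granule protease genes that fell, Prtn3 and Ctsg, show what letters stand upstream of these members. Capitals mark matches, on either strand, of the E-box CAGNTG or of GAGGAA, the core bound by PU.1. They are Cd79a at chr7:24897247-24897496 on the plus strand, Igll1 at chr16:16863986-16864235 on the minus strand, Prtn3 at chr10:79879417-79879666 on the plus strand and Ctsg at chr14:56102575-56102824 on the minus strand.
Cd79a: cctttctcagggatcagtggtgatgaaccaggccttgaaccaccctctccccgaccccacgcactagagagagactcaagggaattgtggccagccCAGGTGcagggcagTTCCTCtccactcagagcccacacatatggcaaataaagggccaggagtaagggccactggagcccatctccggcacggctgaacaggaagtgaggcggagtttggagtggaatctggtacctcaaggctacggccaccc
Igll1: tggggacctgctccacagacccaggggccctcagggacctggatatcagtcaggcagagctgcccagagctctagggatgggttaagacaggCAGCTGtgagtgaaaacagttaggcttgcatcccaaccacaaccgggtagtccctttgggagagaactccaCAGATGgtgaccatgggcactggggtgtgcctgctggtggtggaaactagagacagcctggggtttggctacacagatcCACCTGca
Prtn3: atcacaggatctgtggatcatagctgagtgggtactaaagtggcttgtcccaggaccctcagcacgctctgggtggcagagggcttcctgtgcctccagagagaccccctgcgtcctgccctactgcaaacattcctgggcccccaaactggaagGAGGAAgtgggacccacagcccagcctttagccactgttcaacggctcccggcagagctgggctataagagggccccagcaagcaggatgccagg
Ctsg: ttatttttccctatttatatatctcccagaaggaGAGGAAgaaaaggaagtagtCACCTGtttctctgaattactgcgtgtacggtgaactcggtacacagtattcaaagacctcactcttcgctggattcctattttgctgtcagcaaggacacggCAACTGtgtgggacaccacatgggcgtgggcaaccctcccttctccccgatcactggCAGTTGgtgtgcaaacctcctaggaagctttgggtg
The Cd79a window held 1 E-box and 1 GAGGAA match, Igll1 3 E-boxes, Prtn3 1 GAGGAA, and Ctsg 3 E-boxes and 1 GAGGAA. Of all 32851 windows of this length, 44.8% held an E-box match and 23.2% a GAGGAA match. The C/EBP motif TTGCNNAA, which 9.56% of windows held, had no match in the 4 windows, nor in those of Vpreb1, Mpo and Elane. These are matches of letters in a short window, and matches of the EBF1 motif are not reported here.

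Genes of V(D)J recombination, which cuts and joins gene segments to assemble antigen receptor genes, were higher in part. Of 15 measured, 6 rose, 0 fell and 9 did not pass (40.0% called, against 10.9% of all genes), with a median of 0.23. Rag1, the catalytic subunit of the recombinase, stood at 4.45, 4.35 and 4.60 on the CD127- LMPP arrays and at 9.90 and 9.51 on the Ly6D+ CLP arrays, 37.8-fold higher (log2 difference 5.24, SE 0.16, limma adjusted p = 2.68e-08). Its partner Rag2 stood at 4.91, 5.58 and 5.71 against 6.73 and 7.12 (1.52, adjusted p = 0.00297). Dntt, the terminal transferase that adds bases at the joints, was bright in both groups, at 9.93, 10.14 and 10.46 against 11.60 and 11.55 (1.40, adjusted p = 0.000479). The end-joining gene Xrcc6 differed by 1.22 (adjusted p = 0.00103). The Rag2 difference did not pass between Ly6D+ CLPs and either of the other groups (adjusted p = 0.374 against CD127+ LMPPs and 0.959 against Ly6D- CLPs). With the brightest probe set Rag2 missed the threshold (adjusted p = 0.0524).

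Among lymphoid priming genes, the Gimap family of small GTPases of lymphocytes accounted for most calls. Of 19 measured, 8 rose, 1 fell and 10 did not pass (47.4% called, against 10.9% of all genes), with a median of 0.69. The 4 largest were Gimap4 (log2 difference 2.64, limma adjusted p = 2.36e-05), Gimap7 (2.14), Gimap8 (1.92) and Gimap6 (1.80). Gimap4 stood at 3.26, 3.29 and 3.01 on the CD127- LMPP arrays and at 5.68 and 5.97 on the Ly6D+ CLP arrays. Gimap genes are close copies in a cluster and can share probes. The member that fell, picked after its values were seen, was Id3, an inhibitor of E proteins, at 6.17, 5.86 and 5.61 against 4.55 and 4.72 (−1.25, adjusted p = 0.00186). Satb1, a chromatin organiser of lymphoid progenitors, lay at 0.57 and did not pass (adjusted p = 0.0523), and the chemokine receptor gene Ccr9 at 0.95 (adjusted p = 0.064).

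Genes of IL-7 signalling rose in part, with 40.0% called, against 10.9% of all genes. Of 15 measured, 5 rose, 1 fell and 9 did not pass, with a median of 0.36, and 3 were called higher when any 1 of the 5 compared arrays was left out, after median centring or with the brightest probe set, and 2 with the median probe set. Il2rg, the common γ chain that pairs with CD127, stood at 8.2, 8.08 and 8.08 on the CD127- LMPP arrays and at 9.58 and 9.68 on the Ly6D+ CLP arrays, 2.85-fold higher (limma adjusted p = 0.000236). The feedback inhibitors Cish (log2 difference 1.35, adjusted p = 0.00181) and Socs2 (1.14, adjusted p = 0.00233) rose. Stat5b, a transcription factor that the receptor activates, fell by 0.97 (adjusted p = 0.0139) and its paralog Stat5a lay at −0.58 and did not pass (adjusted p = 0.102). With the brightest probe set Cish (0.14, adjusted p = 0.783) and Stat5b (−0.29, adjusted p = 0.49) lost their call, with the median probe set Socs2 did (0.80, adjusted p = 0.178), and Stat5b did so without either Ly6D+ CLP array (adjusted p = 0.122 and 0.0516).

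Genes of T lineage and Notch signalling rose in part, with 36.4% called, against 10.9% of all genes. Of 22 measured, 8 rose, 0 fell and 14 did not pass, with a median of 0.28, and 5 were called higher with the brightest probe set. Hes1, a target of Notch, stood at 5.29, 5.11 and 5.24 on the CD127- LMPP arrays and at 6.93 and 7.08 on the Ly6D+ CLP arrays, 3.47-fold higher (log2 difference 1.80, limma adjusted p = 0.000366). The T cell receptor ζ chain gene Cd247 (1.62, adjusted p = 0.000385), the costimulatory receptor gene Cd28 (1.58, adjusted p = 0.000133) and Cd7 (1.42, adjusted p = 0.00318) rose too. Cd247 and Cd7 lost their call with the brightest probe set (adjusted p = 0.479 and 0.162). The remaining genes called higher were Zap70, Thy1, Lat and Cd5. Among the T cell genes that did not pass were Gata3 (−0.05, adjusted p = 0.912), Bcl11b (0.50, adjusted p = 0.287), Tcf7 (0.29, adjusted p = 0.365) and Cd3e (−0.13, adjusted p = 0.778). Both groups had Cd3e and Cd3d means below the low-signal limit. Tcf7 was brightest in Ly6D- CLPs, at 6.61 and 6.48, against 5.50 and 5.10 in Ly6D+ CLPs (limma adjusted p = 0.0546 for that difference).

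Of 21 innate lymphoid and natural killer (NK) genes, 8 rose, 2 fell and 11 did not pass, with a median of 0.46, and 4 were called higher without Ly6D+ CLP array 1 or with the brightest probe set. Il18r1, a receptor of interleukin 18, stood at 4.85, 5.27 and 5.30 on the CD127- LMPP arrays and at 7.98 and 8.25 on the Ly6D+ CLP arrays, 7.86-fold higher (log2 difference 2.97, SE 0.17, limma adjusted p = 3.53e-06). The nuclear factor gene Tox rose by 1.28 (adjusted p = 0.00233) and the granzyme gene Gzmb by 1.34 (adjusted p = 0.0048). The called falls were those of Il12rb2 and Itgb7, and 47.6% of the list was called, against 10.9% of all genes. Il2rb passed at 1.02 (adjusted p = 0.00188), from a mean of 3.42 under the low-signal limit to a mean of 4.44 next to it. With the brightest probe set Gzmb turned to −0.03 and Il2rb missed the threshold (0.82, adjusted p = 0.287), and Gzmb also did without Ly6D+ CLP array 1 (adjusted p = 0.0588). Of the NK receptor genes, Klrd1 was called higher, whereas Ncr1 and Klrb1c had means below the low-signal limit in each group. The inhibitor of E proteins Id2 (0.52, adjusted p = 0.0633) and Zbtb16 (0.56, adjusted p = 0.0869), which mark innate lymphoid precursors, did not pass, and Id2 passed after quantile normalization (adjusted p = 0.0255).

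Dendritic cell genes moved in both directions. Of 11 plasmacytoid dendritic cell genes, 3 rose and 2 fell (45.5% called, against 10.9% of all genes). Siglech stood at 5.65, 5.37 and 5.74 on the CD127- LMPP arrays and at 8.91 and 8.93 on the Ly6D+ CLP arrays, 10.1-fold higher (log2 difference 3.33, SE 0.18, limma adjusted p = 2.58e-06). Cox6a2, a cytochrome oxidase subunit also used as a plasmacytoid marker, rose by 2.24 (adjusted p = 3.11e-05) and the RNA sensor gene Tlr7 by 1.33 (adjusted p = 0.00232). Ly6c2 fell by 1.98 (adjusted p = 0.00103) and Bst2 by 0.56 (adjusted p = 0.0463). Only 1 plasmacytoid gene was called lower when CD127- LMPP array 1, 2 or 3 was left out. The same count held after quantile normalization, with the brightest probe set and with the median one. Of 16 conventional dendritic cell and MHC class II genes, Itgax (0.97, adjusted p = 0.00214) and H2-Ob (1.02, adjusted p = 0.0155) rose, and Clec9a (−1.62, adjusted p = 0.00131) and H2-DMa (−0.98, adjusted p = 0.0036) fell. Clec9a, a receptor of conventional dendritic cells and their precursors, stood at 6.27, 6.59 and 6.17 against 4.98 and 4.46. H2-Ob lost its call without either Ly6D+ CLP array (adjusted p = 0.111 and 0.0749) or CD127- LMPP array 1 (0.057), Itgax with the brightest probe set (0.25, adjusted p = 0.683) and Clec9a with the median probe set (adjusted p = 0.0758).

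Genes of neutrophil primary granules, made in granulocyte and monocyte progenitors, were lower in Ly6D+ CLPs. Of 11 measured, 7 fell, 0 rose and 4 did not pass (63.6% called, against 10.9% of all genes). All 11 differences were below 0, and the median was −0.82. Ctsg, which encodes cathepsin G, stood at 10.63, 10.28 and 10.13 on the CD127- LMPP arrays and at 5.89 and 6.03 on the Ly6D+ CLP arrays, 20.9-fold lower (log2 difference −4.38, SE 0.17, limma adjusted p = 1.67e-07). Prtn3, which encodes proteinase 3, stood at 8.95, 8.38 and 8.13 against 4.31 and 4.42, at least 16.6-fold lower (−4.13, SE 0.24, adjusted p = 4.19e-06). Mpo, the myeloperoxidase gene, stood at 11.04, 10.82 and 10.71 against 8.23 and 8.31, 6.00-fold lower (−2.59, SE 0.17, adjusted p = 1.19e-05), and so remained well above the low-signal limit. Elane, the neutrophil elastase gene, stood at 8.70, 7.04 and 6.43 against 5.05 and 4.67, 5.78-fold lower (−2.53, SE 0.49, adjusted p = 0.00775). The CD127- LMPP arrays differed among themselves in Elane, with array 1 the highest, and Elane missed the threshold without Ly6D+ CLP array 2 (adjusted p = 0.0715). The number called lower was 4 without Ly6D+ CLP array 1 or with the median probe set and 3 without Ly6D+ CLP array 2.

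Genes of mature neutrophils gave 1 call in each direction, 13.3% of those measured, against 10.9% of all genes. Of 15 measured, Ngp rose (1.27, limma adjusted p = 0.0289), Mmp8 fell (−1.55, adjusted p = 0.0265) and 13 did not pass, with a median of 0.17 and mean levels over the list of 4.42 to 5.18 on the CD127- LMPP arrays and 4.57 to 5.10 on the Ly6D+ CLP arrays. S100a8, a calprotectin subunit, stood at 7.37, 9.11 and 6.08 against 7.86 and 6.70, so the groups overlapped (−0.24, adjusted p = 0.865). Ngp lost its call without either Ly6D+ CLP array (adjusted p = 0.145 and 0.125) and without CD127- LMPP arrays 1 and 3 (0.0934 and 0.0805), and Mmp8 without either Ly6D+ CLP array (0.0749 and 0.181) and without CD127- LMPP arrays 1 and 2 (0.0901 and 0.081). The part of mature neutrophils in these values was not tested.

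Monocyte and macrophage genes were lower. Of 18 measured, 7 fell, 0 rose and 11 did not pass (38.9% called, against 10.9% of all genes), with a median of −0.56. Mean levels over the list were 6.01 to 6.37 on the CD127- LMPP arrays against 5.18 and 5.21 on the Ly6D+ CLP arrays. F13a1, a coagulation factor gene of monocytes and platelets, stood at 9.15, 8.77 and 8.10 against 4.66 and 3.90, at least 18.9-fold lower (log2 difference −4.40, SE 0.29, limma adjusted p = 1.18e-05). Ms4a6c stood at 9.65, 9.34 and 9.47 against 6.5 and 6.57, 7.73-fold lower (−2.95, adjusted p = 1.12e-06). Ccr2, the chemokine receptor of inflammatory monocytes, was at least 4.53-fold lower (−2.67, adjusted p = 0.000147) and the lysosomal gene Cd68 3.11-fold lower (−1.64, adjusted p = 0.000156). The macrophage complement genes C1qa (0.19, adjusted p = 0.64) and C1qb (0.07, adjusted p = 0.874) did not pass, at group means of 4.90 and 5.09 for C1qa and of 4.24 and 4.32 for C1qb. The part of monocytes or macrophages in the sort was not tested.

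Receptors for myeloid cytokines fell in 4 of 11 cases (36.4% called, against 10.9% of all genes), with 0 higher and a median of −0.47. Il6ra, the interleukin 6 receptor, stood at 8.17, 8.23 and 7.89 on the CD127- LMPP arrays and at 5.79 and 5.78 on the Ly6D+ CLP arrays, 4.97-fold lower (log2 difference −2.31, limma adjusted p = 0.000139). Csf1r, the receptor of macrophage colony-stimulating factor, stood at 7.81, 7.93 and 7.47 against 5.66 and 5.50, 4.44-fold lower (−2.15, adjusted p = 3.99e-05). Csf3r, the receptor of granulocyte colony-stimulating factor, was 3.86-fold lower (−1.95, adjusted p = 4.52e-05) and Il3ra 2.31-fold lower (−1.21, adjusted p = 0.00342). In all 4 genes the groups were well apart. Among 12 myeloid transcription factor genes, 4 fell and 3 rose, with 1 called higher when any 1 of the 5 compared arrays was left out, after median centring or with the median probe set, and 2 called lower with the brightest probe set. Tfec, a macrophage factor, stood at 7.35, 6.15 and 6.31 against 3.65 and 2.93 (−3.32, adjusted p = 0.000239), Cebpd was lower by 1.38 log2 (adjusted p = 0.00391, 1 probe set) and Cebpa, needed for granulocyte and monocyte progenitors, was at 5.82, 5.92 and 5.90 against 4.33 and 5.0 (−1.22, adjusted p = 0.00672). The fourth, picked after its values were seen, was Sfpi1, the symbol on the array for the PU.1 gene Spi1, at 8.38, 8.25 and 8.33 against 7.06 and 7.21 (−1.19, adjusted p = 0.00297). Klf4 rose by 1.25 (adjusted p = 0.00144). Calls made up 58.3% of the myeloid transcription factor list. Cebpa missed the threshold without Ly6D+ CLP array 1 (adjusted p = 0.083), and Tfec (0.0867) and Sfpi1 (0.105) with the brightest probe set.

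**Figure D2:**
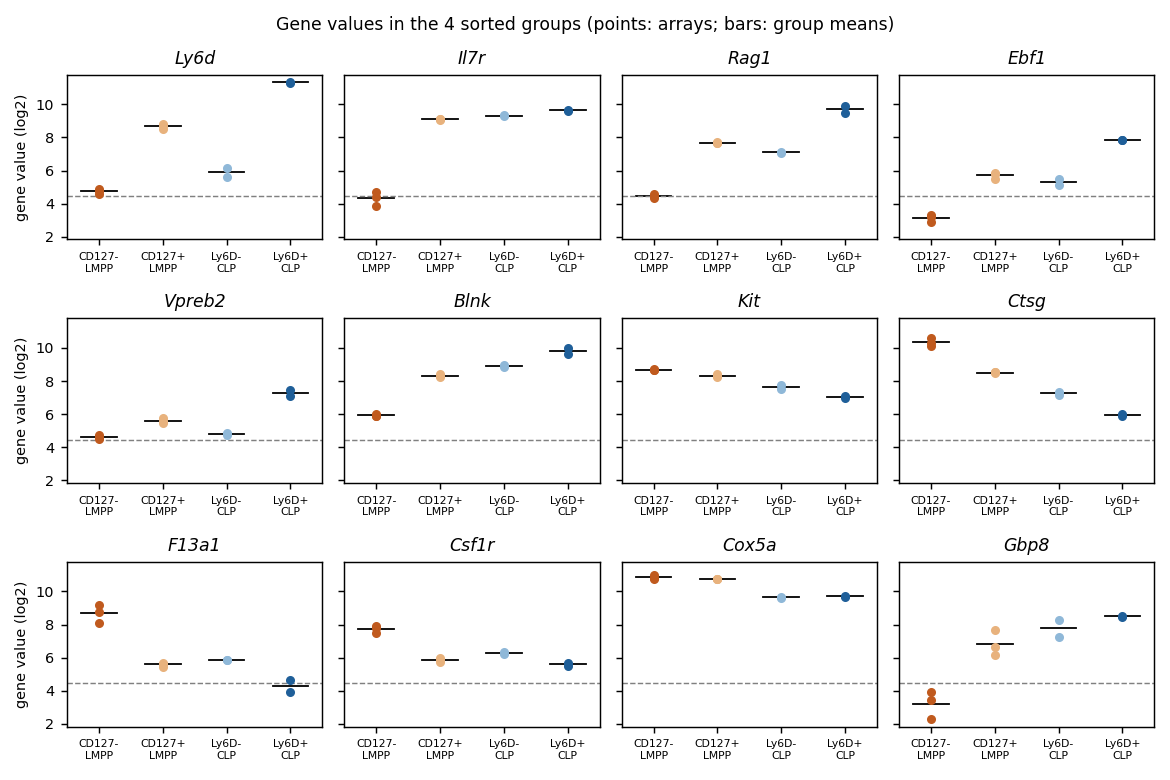
Gene values (log2) of 12 genes in the 4 sorted groups, with a point for each array, a bar for each group mean and a dashed line at the low-signal limit of 4.43. Ly6d, Rag1, Ebf1 and Vpreb2 are lower in Ly6D- CLPs than in CD127+ LMPPs and highest in Ly6D+ CLPs, whereas Kit and Ctsg fall from group to group, and Cox5a is at one level in both LMPP groups and at a lower one in both CLP groups.

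Stem and multipotent progenitor genes were lower in part, with 44.4% called, against 10.9% of all genes. Of 18 measured, 7 fell, 1 rose and 10 did not pass, with a median of −0.22, and 4 were called lower without Ly6D+ CLP array 2. Hlf, a factor of stem cells, stood at 5.75, 6.03 and 6.26 on the CD127- LMPP arrays and at 4.44 and 4.21 on the Ly6D+ CLP arrays, at least 2.99-fold lower (log2 difference −1.69, limma adjusted p = 0.0009). Gata2 was 2.54-fold lower (−1.35, adjusted p = 0.00154), Cd34 2.34-fold (−1.23, adjusted p = 0.000516) and the niche ligand gene Angpt1 2.07-fold (−1.05, adjusted p = 0.00353). Cd34 remained bright, at 9.19 and 9.40 in Ly6D+ CLPs. Gata2 missed the threshold with the median (adjusted p = 0.0817) and the brightest probe set (0.11). Limma called 0 of the 20 Hoxa and Hoxb genes, 14 of which were below the low-signal limit at either end. The largest difference was that of Hoxa9, at 6.73, 6.90 and 6.97 against 6.35 and 6.33 (−0.52, adjusted p = 0.0631), which passed in 4 alternatives (adjusted p from 0.02 to 0.0482).

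Among markers of the other marrow lineages, 3 of 13 erythroid genes (23.1%) and 3 of 15 megakaryocyte and platelet genes (20.0%) were called, against 10.9% of all genes. Among the erythroid genes Car2 (−1.72, limma adjusted p = 0.0012) and Car1 (−1.41, adjusted p = 0.0109), both carbonic anhydrases, fell and Tfrc, the transferrin receptor gene, rose by 1.18 (adjusted p = 0.000479), while the erythroid factor Klf1 did not pass (0.17, adjusted p = 0.65). Car1 lost its call without Ly6D+ CLP array 1 (adjusted p = 0.0987). Among the megakaryocyte and platelet genes Selp (−1.20, adjusted p = 0.0151) and Plek (−0.75, adjusted p = 0.00672) fell and Itgb3 rose (0.92, adjusted p = 0.00522), and Pf4 and Itga2b means were below the low-signal limit at either end. Selp missed the threshold without either Ly6D+ CLP array (adjusted p = 0.0776 and 0.101) and Plek and Itgb3 without array 1 (0.067 and 0.0633). Of 11 mast cell, basophil and eosinophil genes Mcpt8, a basophil protease, was called (9.09% of the list), at 7.48, 7.52 and 7.27 against 5.63 and 5.34 (−1.94, adjusted p = 6.76e-05). Of 10 mature B and plasma cell genes limma called 0, with Igj as the largest difference (0.80, adjusted p = 0.148), and Ms4a1, which encodes CD20, lay under the limit. Of 13 stroma and endothelium genes (7.69% called) Emcn fell (−1.22, adjusted p = 0.0014), and Cdh5 and Col1a1 lay under the limit. Mean levels over the mature B list ran from 4.11 to 4.31 on the CD127- LMPP and from 4.56 to 4.57 on the Ly6D+ CLP arrays, and over the stroma list from 4.35 to 4.62 and from 4.46 to 4.57.

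**Figure D3:**
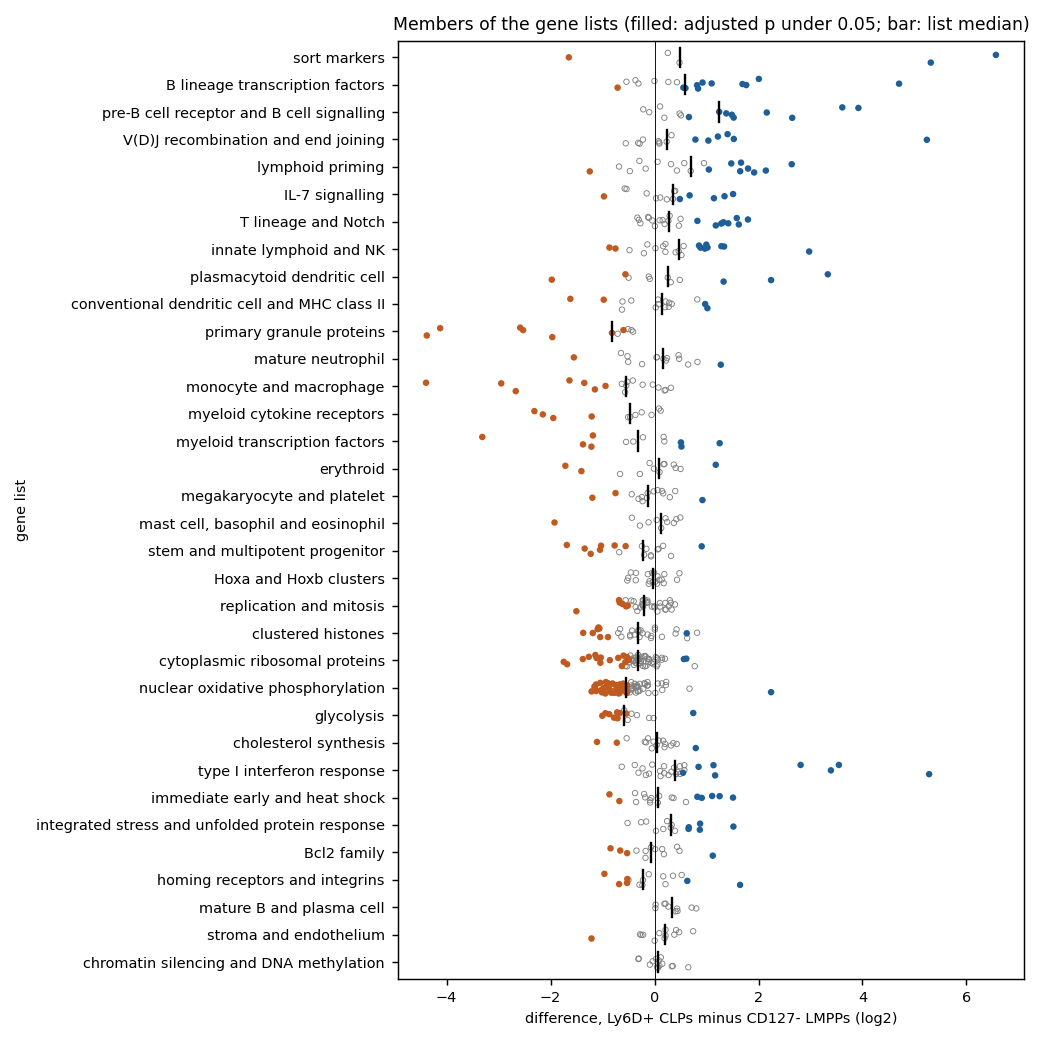
Difference between Ly6D+ CLPs and CD127- LMPPs (log2) for each measured member of 34 gene lists, with a point for each gene and a bar at the list median. Filled points passed limma at an adjusted p of 0.05 (blue higher, orange lower), and the filled points lie to the right in the B lineage lists and to the left in the granule, monocyte and oxidative phosphorylation lists.

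Nuclear genes of oxidative phosphorylation, which encode subunits of the mitochondrial respiratory chain and ATP synthase, were lower in Ly6D+ CLPs. Of 76 measured, 39 fell, 1 rose and 36 did not pass, and the median was −0.56. By complex, 22 of 35 fell in complex I (median −0.69), 2 of 4 in complex II, 5 of 7 in complex III (−0.60), 5 of 14 in complex IV (−0.45) and 5 of 16 in complex V (−0.39), a division made after the values were seen. Uqcr11, a complex III subunit, stood at 8.62, 8.78 and 8.44 on the CD127- LMPP arrays and at 7.36 and 7.44 on the Ly6D+ CLP arrays, 2.32-fold lower (log2 difference −1.21, limma adjusted p = 0.000845). Cox5a, a complex IV subunit, stood at 10.97, 10.75 and 10.83 against 9.67 and 9.74, 2.21-fold lower (−1.15, adjusted p = 0.000479), and the complex I gene Ndufa11 was 2.23-fold lower (−1.16, adjusted p = 0.00765). The member that rose was Cox6a2, a tissue-restricted subunit that is also on the plasmacytoid list.

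These genes are bright. Of the brightest 5788 genes, 16.4% were called lower, against 6.94% of all genes, and their median difference was −0.12, while the 64 list members among them gave 37 calls lower. After quantile normalization 30 of the 76 were called lower (median −0.45) and with the brightest probe set 20. Without Ly6D+ CLP array 1 the count was 10, without array 2 it was 14 and without CD127- LMPP array 1 it was 24, and Ndufa11 missed the threshold without Ly6D+ CLP array 2 (adjusted p = 0.0918). Both CLP groups lay below both LMPP groups: the list medians against CD127- LMPPs were −0.10 in CD127+ LMPPs and −0.45 in Ly6D- CLPs, and Cox5a stood at 10.74, 10.74 and 10.77 in CD127+ LMPPs and at 9.68 and 9.61 in Ly6D- CLPs. The same division separated a small Cajal body RNA gene, Scarna2, picked after its values were seen, which lay between 9.91 and 10.60 on all 6 LMPP arrays and between 3.59 and 6.11 on all 4 CLP arrays. The part of a difference between the runs of arrays in these values was not tested.

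Of 63 ribosomal protein genes, 15 fell, 2 rose and 46 did not pass, with a median of −0.32. Of the 49 among the brightest 5788 genes 11 were lower, near the share of 16.4% of all genes at that level. The largest were Rpl34 (log2 difference −1.75, limma adjusted p = 0.00294), Rpl29 (−1.68, adjusted p = 0.00104), Rpl39 (−1.38, adjusted p = 0.0152) and Rpl30 (−1.26, adjusted p = 0.00331), of which the first 3 rest on 1 probe set each and Rpl30 on 2. The count called lower was 10 after quantile normalization (median −0.19), 7 with the brightest or the median probe set, 8 without Ly6D+ CLP array 1, 5 without array 2 and 10 without CD127- LMPP array 1. Rpl39 lost its call without Ly6D+ CLP array 2 (adjusted p = 0.138) or CD127- LMPP array 1 (0.0567), and Rpl30 with the brightest probe set (0.11). Of 15 glycolysis genes 8 fell and 1 rose (60.0% called, against 10.9% of all genes), with a median of −0.59. Pkm, the pyruvate kinase gene, stood at 8.68, 8.48 and 8.30 against 7.55 and 7.42 (−1.01, adjusted p = 0.00235), followed by Tpi1 (−0.94, adjusted p = 0.00447), the glucose transporter gene Slc2a3 (−0.87, adjusted p = 0.0279) and Pgam1 (−0.78, adjusted p = 0.0133). Tpi1 missed the threshold without Ly6D+ CLP array 1 (adjusted p = 0.0504), Pgam1 without either Ly6D+ CLP array (0.115 and 0.0561) or CD127- LMPP array 1 (0.0521), and Slc2a3 without Ly6D+ CLP array 2 (0.244) or any CD127- LMPP array (from 0.053 to 0.0843). The glycolysis count was 2 without Ly6D+ CLP array 1 or CD127- LMPP array 1 and 3 without Ly6D+ CLP array 2 or CD127- LMPP array 2. It was 5 with the brightest and 3 with the median probe set. With the median probe set Pkm lost its call (−0.60, adjusted p = 0.11). Of the cholesterol synthesis genes measured, 17.6% were called, against 10.9% of all genes. Of 17 cholesterol synthesis genes Fdps (−1.11, adjusted p = 0.0213) and Sqle (−0.73, adjusted p = 0.0353) fell and Insig1 rose (0.79, adjusted p = 0.00428), and both falls missed the threshold without Ly6D+ CLP array 1 (adjusted p = 0.0962 and 0.151) and array 2 (0.127 and 0.16) and without CD127- LMPP array 1 (0.0746 and 0.102) and array 2 (0.0644 and 0.099).

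**Figure D4:**
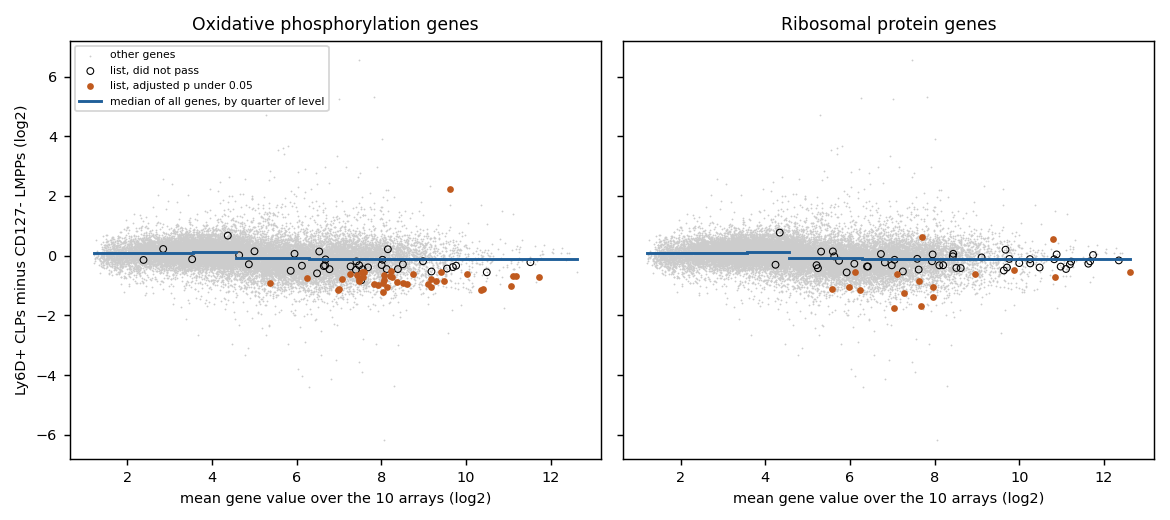
Difference between Ly6D+ CLPs and CD127- LMPPs (log2) against the mean gene value over the 10 arrays (log2), with all genes in grey and the 76 oxidative phosphorylation (left) or 63 ribosomal protein genes (right) marked, filled where they passed. Blue lines are the medians of all genes in 4 equal groups by level, which run from 0.10 among the dimmest to −0.12 among the brightest, and most marked genes lie below them.

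Of 36 replication and mitosis genes 6 fell (16.7%, against 6.94% of all genes) and 0 rose, with a median of −0.20. These genes are bright too, with mean levels over the list of 8.02 to 8.14 on the CD127- LMPP arrays. The share called lower was near the 16.4% of the brightest 5788 genes, whose mean values start at 6.29. Ccnd1, which encodes cyclin D1, stood at 7.21, 7.22 and 6.95 on the CD127- LMPP arrays and at 5.73 and 5.51 on the Ly6D+ CLP arrays, 2.84-fold lower (log2 difference −1.50, limma adjusted p = 0.000303). The other called members it led were Plk1 (−0.68, adjusted p = 0.015), Cdc20 (−0.67, adjusted p = 0.0292), Rrm2 (−0.62, adjusted p = 0.0264) and 2 more. After quantile normalization 2 were called lower, with the brightest probe set 3 were lower and 3 higher, and 1 was called without Ly6D+ CLP array 1, Ly6D+ CLP array 2 or CD127- LMPP array 1. Of 30 clustered histone genes 7 fell (23.3%) and 1 rose, led by Hist1h4h (−1.37, adjusted p = 0.00215), Hist1h4m (−1.19, adjusted p = 0.00181), Hist1h1e (−1.09, adjusted p = 0.0036) and Hist2h2ab (−1.08, adjusted p = 0.00212). Histone genes are close copies that can share probes. Plk1, Cdc20 and Rrm2 missed the threshold without Ly6D+ CLP array 1 (adjusted p from 0.0995 to 0.139), array 2 (from 0.0876 to 0.169) and CD127- LMPP array 1 (from 0.0565 to 0.0927).

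Interferon response genes were higher in part, with 5 called without Ly6D+ CLP array 2. Of 28 measured, 8 rose and 0 fell (28.6% called, against 10.9% of all genes), with a median of 0.39. Of the 8, 5 were guanylate-binding protein (Gbp) genes, GTPases that act against intracellular microbes, and the rest were Oas2, Mx2 and Ifi44. Ifit1, Ifit2, Ifit3, Isg15 and Irf7 were among the members that did not pass. Gbp8 stood at 2.28, 3.45 and 3.94 on the CD127- LMPP arrays and at 8.53 and 8.47 on the Ly6D+ CLP arrays, at least 16.8-fold higher (log2 difference 5.28, SE 0.51, limma adjusted p = 0.000144). Gbp9 stood at 3.48, 3.77 and 4.36 against 7.08 and 7.45 (3.39, adjusted p = 3.16e-05), Gbp4 at 4.20, 4.09 and 4.48 against 7.30 and 6.83 (2.81, adjusted p = 1.25e-05), and Gbp6, with 1 probe set, at 3.79, 2.99 and 4.48 against 7.32 and 7.28 (3.55, adjusted p = 0.000227). Gbp10, outside the list, rose by 2.85 (adjusted p = 0.00181). In each of these the CD127- LMPP arrays lay near or under the low-signal limit and the Ly6D+ CLP arrays well above it. Gbp genes are close copies, so values of single members are uncertain. Against CD127- LMPPs, 9 list members were also called higher in CD127+ LMPPs (list median 0.53) and 9 in Ly6D- CLPs (0.57). The list median of Ly6D+ CLPs lay at −0.14 against CD127+ LMPPs, with 3 members called higher, and at −0.13 against Ly6D- CLPs, with 0 called.

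Immediate early and stress genes also respond to cell handling. The immediate early and heat shock list moved in both directions, with 10 differences above 0 and 9 below, and the stress list was higher in part. The calls made up 36.8% and 35.7% of these lists, against 10.9% of all genes. Of 19 immediate early and heat shock genes 5 rose and 2 fell, with a median of 0.06, and 1 was called higher without Ly6D+ CLP array 2. The called falls were those of Ier3 and Klf6. Nr4a1, an orphan nuclear receptor gene, stood at 9.98, 10.07 and 9.99 on the CD127- LMPP arrays and at 11.48 and 11.56 on the Ly6D+ CLP arrays, 2.85-fold higher (limma adjusted p = 0.000277). Egr3 (log2 difference 1.25, adjusted p = 0.00415), Btg2 (1.11, adjusted p = 0.00707) and Fosb (0.91, adjusted p = 0.00609) rose, and each of these 3 missed the threshold without Ly6D+ CLP array 2 (adjusted p = 0.0517, 0.0763 and 0.0526). Of 14 integrated stress and unfolded protein response genes 5 rose and 0 fell, with a median of 0.32. Ddit3, which encodes CHOP, stood at 7.34, 7.36 and 7.44 against 8.95 and 8.84, 2.86-fold higher (adjusted p = 0.000272), with Herpud1 (0.88, adjusted p = 0.0148), Chac1 (0.87, adjusted p = 0.0109), Ppp1r15a (0.66, adjusted p = 0.00799) and Dnajb9 (0.65, adjusted p = 0.0156). This count was 1 without Ly6D+ CLP array 1 and 2 without array 2. The part of cell handling in these values was not tested.

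Of 13 Bcl2 family genes 4 were called (30.8%, against 10.9% of all genes). Bcl2l11, which encodes the death activator Bim, rose by 1.12 (limma adjusted p = 0.00145), and Bak1 (−0.85, adjusted p = 0.0231), Bad (−0.66, adjusted p = 0.0133) and Bid (−0.53, adjusted p = 0.0333), which all promote cell death, fell. The 3 falls missed the threshold without either Ly6D+ CLP array (adjusted p from 0.063 to 0.255), Bak1 also without CD127- LMPP arrays 1 and 2 (0.0601 and 0.0657) and Bid without each CD127- LMPP array (from 0.0699 to 0.0912). Of 15 homing receptor and integrin genes 2 rose and 4 fell (40.0% called). The count called lower was 1 after quantile normalization or with the brightest probe set and 2 with the median probe set. Cxcr5, the chemokine receptor of B cell follicles, stood at 4.84, 4.92 and 5.04 on the CD127- LMPP arrays and at 6.55 and 6.61 on the Ly6D+ CLP arrays, 3.13-fold higher (log2 difference 1.65, adjusted p = 0.000139). S1pr1 (0.63, adjusted p = 0.0306) also rose, and the integrin genes Itgam (−0.97, adjusted p = 0.00969) and Itga6 (−0.68, adjusted p = 0.0142) fell. S1pr1 and Itga6 missed the threshold without either Ly6D+ CLP array (adjusted p from 0.0542 to 0.223), S1pr1 also without CD127- LMPP arrays 1 and 3 (0.0916 and 0.0807), and Itgam without Ly6D+ CLP array 1 (0.0976). Of 14 genes of chromatin silencing and DNA methylation limma called 0, with Hdac9 the largest difference (0.65, adjusted p = 0.0688), which passed after quantile normalization (adjusted p = 0.0227).

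Several of the largest differences lay outside the lists. St6gal1 encodes the sialyltransferase that makes the ligand of CD22, a surface protein of B cells. St6gal1 stood at 3.55, 4.07 and 3.96 on the CD127- LMPP arrays and at 7.53 and 7.57 on the Ly6D+ CLP arrays. It was at least 8.68-fold higher (log2 difference 3.69, SE 0.18, limma adjusted p = 1.12e-06). Cmah, which hydroxylates sialic acid, stood at 6.07, 6.10 and 6.19 against 9.11 and 9.10, 7.92-fold higher (2.99, SE 0.13, adjusted p = 4.75e-07). The orphan receptor gene Gpr25 rose by 2.89 (adjusted p = 3.72e-05). On the lower side, the melanocortin receptor gene Mc5r, with 2 probe sets, stood at 7.66, 7.97 and 7.76 against 3.81 and 3.69, at least 10.3-fold lower (−4.05, SE 0.20, adjusted p = 1.12e-06). Lst1, a leukocyte membrane protein gene, stood at 9.16, 9.38 and 9.01 against 5.06 and 5.53, 14.8-fold lower (−3.88, adjusted p = 2.08e-06), and Rab38, a GTPase of lysosome-related organelles, at 8.08, 7.95 and 8.05 against 4.76 and 4.61, 10.2-fold lower (−3.34, adjusted p = 3.88e-07). Anxa3 (−3.79), the chemokine gene Ccl9 (−3.58), the mucin gene Muc13 (−3.51), Ms4a4c (−3.10), the peroxisomal transporter gene Abcd2 (−2.96) and Myct1 (−2.95) were lower with adjusted p from 2.71e-06 to 0.00032. Abcd2 missed the threshold with the brightest probe set (adjusted p = 0.0708).

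The other sorted groups lay between the ends for most called genes. Of the 910 genes called higher, the CD127+ LMPP mean lay between the end means for 781 and the Ly6D- CLP mean for 715, and for 478 all 4 means stood in the order CD127- LMPPs, CD127+ LMPPs, Ly6D- CLPs, Ly6D+ CLPs. Of the 1607 called lower, the counts were 1403, 1331 and 1008. The median share of the end difference reached was 38.1% in CD127+ LMPPs and 77.4% in Ly6D- CLPs for the higher genes, and 27.5% and 75.2% for the lower genes. These shares take both ends as given and are a description without a test. Il7r stood at 9.05, 9.15 and 9.10 in CD127+ LMPPs and at 9.34 and 9.28 in Ly6D- CLPs, close to its level in Ly6D+ CLPs. Car1 stood out in CD127+ LMPPs, at 8.93, 8.06 and 8.97 there against 5.70, 5.86 and 5.63 in CD127- LMPPs.

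Against the neighbouring groups, limma called 933 of 23152 genes (4.03%) between Ly6D+ CLPs and CD127+ LMPPs and 23 (0.0993%) between Ly6D+ and Ly6D- CLPs, in comparisons that share the Ly6D+ CLP arrays. Of the 910 genes called higher than in CD127- LMPPs, 247 were also higher than in CD127+ LMPPs (1.28% of all genes were) and 9 also higher than in Ly6D- CLPs (0.0389%). The 9 were Ly6d, Rag1, Ebf1, Vpreb2, Gfra2, Cecr2, Lynx1, Myl4 and Trem1, of which the last 5 are named for that count. Ebf1 differed from Ly6D- CLPs by 2.55 (adjusted p = 0.000292), Rag1 by 2.60 (adjusted p = 0.00013) and Vpreb2 by 2.46 (adjusted p = 0.000225). Cecr2, a chromatin remodelling factor gene, stood at 3.36, 3.37 and 3.71 in CD127- LMPPs, at 3.85 and 4.33 in Ly6D- CLPs and at 6.04 and 5.84 in Ly6D+ CLPs. Gfra2, a neurotrophic factor receptor gene, stood at 4.07, 4.17 and 4.18, at 4.15 and 3.89 and at 6.32 and 6.10, and its brightest probe set differed by −0.07 between the ends. Of the 1607 called lower, 558 were also lower than in CD127+ LMPPs (2.75% of all genes were) and 11 also lower than in Ly6D- CLPs (0.0605%), among them Ctsg (−1.29, adjusted p = 0.0331), Mc5r (−1.65, adjusted p = 0.0225), Lst1 (−1.48, adjusted p = 0.0461) and Rab38 (−1.03, adjusted p = 0.0461). The count between the CLP groups depended on the fit: 1 gene was called when the 4 CLP arrays were fitted alone, and 6 to 9 genes without Ly6D- CLP array 2, Ly6D+ CLP array 1 or Ly6D+ CLP array 2. Between Ly6D+ CLPs and CD127+ LMPPs it was 221 without Ly6D+ CLP array 1, 194 without array 2 and 491 to 507 without a CD127+ LMPP array. A single gene called higher than in CD127- LMPPs was called lower than in CD127+ LMPPs, the receptor gene Igf2r, at 4.06, 4.34 and 4.45, at 6.39, 6.23 and 6.12 in CD127+ LMPPs and at 5.23 and 5.38 in Ly6D+ CLPs. Igf2r missed the threshold against CD127- LMPPs without Ly6D+ CLP array 2 (adjusted p = 0.0513).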

How the data were processed

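Total RNA from 10 sorted cell samples was hybridised to Affymetrix arrays, per the labels' protocols, and Affymetrix Power Tools is named in the submitters' processing notes without a version. How probe sets were summarised and normalized, and on which genome build, was not given in the sources used here. Values deposited by the authors, 1 per probe set, run from 0.20433 to 14.79009 and were read as log2, a base that is not stated. Their number and the signal over background limit the precision.

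Of 269751 probe sets, 233753 carry 1 gene symbol in the platform annotation, 5106 several and 30892 none. The mean of the probe sets with 1 symbol gave 23152 gene values (median 8 probe sets per gene, 2319 genes with 1). Symbols are those of the annotation, 2274 of them older synonyms in RefSeq. Differences were tested with limma 3.58.1 (R 4.3.3), in 1 fit over all 10 arrays with 4 group means, moderated variances and Benjamini-Hochberg adjustment over all genes at 0.05. The low-signal limit is the 95th percentile of 1419 sensory receptor genes. Genes of 34 lists (662 genes), the sorted markers, the 15 largest called differences each way and the 4 largest called members of each list (all members called where 5 or fewer passed) were named, and other named genes were picked after their values were seen. The members and lists were chosen with earlier results of these data known. List members without a match on the array were not analysed here. The labels do not say whether a replicate number marks a shared animal, sort or day, so pairing of the arrays is unknown. Deviations of same-numbered arrays correlated at −0.0431 to 0.127 over 13 pairs. These values cannot decide it, since none for differently numbered arrays stand beside them. The scripts were tested on simulated data. The alternatives tried were median centring, quantile normalization, each gene's median or brightest probe set, a filter on dim genes, limma's trend and robust settings, array weights, a replicate block, the compared arrays alone, a 2-fold threshold and each array left out in turn.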

Additional observations from a re-analysis of the deposited data

Results flagged for a closer look

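Probe sets to which the annotation gives no gene symbol were not part of the gene comparison. Of 30892 of them, 165 (0.534%) were called by limma between Ly6D+ CLPs and CD127- LMPPs, 107 higher and 58 lower, and 3996 had an unadjusted p under 0.05. Their transcripts were not identified here. Groups of 2 and 3 arrays were too small for a test of single arrays that stand apart.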

How the results depend on the processing

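Of 124 named genes called between Ly6D+ CLPs and CD127- LMPPs, 91 kept their call without each array in turn and 74 under every alternative but the 2-fold threshold. The 2517 calls became 1364 (480 higher, 884 lower) with the median probe set, 809 (319 and 490) at 2-fold, and 1001 to 2086 (372 to 728 and 629 to 1358) without single arrays, and the brightest probe set gave 867 lower. Whether replicate numbers pair the arrays is unknown, and a replicate block gave 2069 calls. Against CD127+ LMPPs the 933 calls became 429 (median probe set), 1916 (filter on dim genes), 1954 (trend and robust), 553 (replicate block), 1423 (array weights), 321 (2-fold) and 194 to 507 without single arrays. Against Ly6D- CLPs the 23 became 11 (median or brightest probe set), 67 (filter on dim genes), 78 (trend and robust), 8 (replicate block), 13 (array weights), 1 (compared arrays alone) and 6 to 27 without single arrays. With the brightest probe set Gfra2 (−0.0655), Gzmb (−0.0321) and Mmp8 (0.0866) turned sign, as did Vpreb1 (−0.414) with the median probe set. The cause was not tested. The 124 genes do not include Gfra2 and Vpreb1, which were picked after their values were seen. The shares of kept calls therefore do not cover every gene named here. Of the calls, 174 had both group means below the low-signal limit, where differences are least certain.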

Other observations

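The genes in this section were picked after their values were seen. Beside Ly6d in the RefSeq gene order (GRCm38.p6), Lynx1, 1 gene away, encodes another small protein of the Ly6 family. Lynx1 stood at 5.58, 5.51 and 5.25 on the CD127- LMPP arrays and at 7.01 and 7.87 on the Ly6D+ CLP arrays, 3.98-fold higher (limma adjusted p = 0.000359). In Ly6D- CLPs it stood at 5.58 and 5.60. Ly6k, 2 genes away, differed by 0.80 (limma adjusted p = 0.0118) and missed the threshold without Ly6D+ CLP array 2 (adjusted p = 0.126). The neighbours Psca, Slurp1, Lypd2, Gml, Cyp11b1 and Cyp11b2 did not pass. Of 11 Gbp genes, limma called 7 higher in Ly6D+ CLPs, among them all 6 on chromosome 5 (Gbp4, Gbp6, Gbp8, Gbp9, Gbp10 and Gbp11), while Gbp7 was called and Gbp2, Gbp3 and Gbp5 were not on chromosome 3. Gbp11 missed the threshold without either Ly6D+ CLP array (adjusted p = 0.0951 and 0.217) and without CD127- LMPP arrays 1 and 2 (0.0569 and 0.0609).

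Of 501 microRNA genes, 24 were higher and 9 lower (6.59% called, against 10.9% of all genes). Mir155, at the locus of a microRNA of activated lymphocytes, stood at 6.45, 6.22 and 6.30 on the CD127- LMPP arrays and at 8.94 and 9.22 on the Ly6D+ CLP arrays, 6.76-fold higher (limma adjusted p = 0.000137). In Ly6D- CLPs it stood at 8.59 and 9.04. Mir142, at the locus of a microRNA of blood cells, was 2.61-fold higher (limma adjusted p = 0.00131). Each rests on 1 probe set, which reads RNA from the locus and not the mature microRNA. The mature sequences these loci encode, from RefSeq (GRCm38.p6), are shown with the seed, bases 2 to 8, in capitals, and no seed is shared among them.
miR-155-5p: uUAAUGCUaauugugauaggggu
miR-155-3p: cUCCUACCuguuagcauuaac
miR-142a-5p: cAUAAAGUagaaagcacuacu
miR-142a-3p: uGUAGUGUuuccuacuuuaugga
Of 75 Snora and Snord genes, which guide RNA modification, 2 were higher and 11 lower (17.3% called), and of 8 Scarna genes 1 was higher and 2 lower. Scarna13 lay between 9.33 and 9.67 on the 6 LMPP arrays and between 6.12 and 7.17 on the 4 CLP arrays (log2 difference −2.99, limma adjusted p = 5e-05).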
